A study of Mus musculus with 24 samples.

Results

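Polycomb repressive complex 1 (PRC1) was compared between 2 ways of disabling it in mouse embryonic stem cells (ESCs). In OHT-treated PRC1CPM cells the complex is still made but cannot ubiquitylate histone H2A, whereas in OHT-treated PRC1CKO cells its RING1A and RING1B subunits are lost. The comparison was restricted to the RNA-seq libraries of OHT-treated cells, 3 of PRC1CPM against 3 of PRC1CKO, which are 6 of the 24 samples of the series and 6 of its 12 RNA libraries. The question is which genes end at different levels when PRC1 is present but inactive rather than absent. For many of the results, the levels or differences in the 6 untreated libraries of the same lines are given as well.

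PRC1 and PRC2 are the main Polycomb complexes and keep developmental genes silent in ESCs. PRC1 contains RING1A or RING1B, the E3 ligases that place ubiquitin on histone H2A, together with a PCGF protein. Canonical PRC1 adds CBX and PHC subunits and compacts chromatin, whereas variant PRC1 carries RYBP or YAF2 and is thought to be responsible for most of the ubiquitylation. The Hox clusters and genes for other lineage-determining transcription factors are the best-known targets in ESCs.

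Both lines are ESCs of the E14 strain, carry a tamoxifen-inducible Cre (ERT2-Cre) inserted at Rosa26, and were kept for 72 h in 4-hydroxytamoxifen (OHT) at 800 nM. PRC1CKO cells are Ring1a-/- from the outset and have floxed Ring1b alleles (Ring1bfl/fl), so that OHT removes RING1B as well. PRC1CPM cells carry the substitutions I50A and D53K in both Ring1a alleles from the outset. Their floxed Ring1b alleles switch from the wild-type to the I53A and D56K form upon OHT. Before OHT, therefore, RING1A is already absent in the former line and already inactive in the latter. Each line is 1 clone, B9 for PRC1CKO and 41 for PRC1CPM, so a difference of genotype and a difference between clones cannot be told apart.

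The normalised read count used throughout is the number of reads over a gene divided by a size factor that the authors took from Drosophila spike-in cells, so that it follows the amount of RNA per cell. The PRC1CKO libraries held 24439897, 21042163 and 24004077 reads on annotated transcripts, and the PRC1CPM libraries 27016156, 23164194 and 19934821. The median normalised count over the transcripts tested was 586.2, 512.8 and 540.9 in PRC1CKO and 720.1, 465.4 and 584.9 in PRC1CPM. PRC1CPM replicate 1 therefore lay highest and PRC1CPM replicate 2 lowest on the calibrated scale. Replicates are numbered as in the labels.

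Of 20633 transcripts in the table, 16710 had at least 10 reads in at least 3 of the 6 libraries and were tested with limma on log2(normalised count + 1). A difference is always PRC1CPM minus PRC1CKO on this log2 scale, which understates the change of genes with few reads. A transcript was called at a Benjamini-Hochberg adjusted p below 0.05 and a difference of more than 1.5-fold. The median difference of all tested transcripts was 0.10, against -0.0018 when the libraries were rescaled by TMM (a trimmed mean that sets most genes equal) and 0.26 without the correction for spike-in abundance in genomic DNA. Differences are best read against that shift.

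The targeted genes were examined first. Ring1, which encodes RING1A (chr17:34020792-34024680, mm10), had 281, 251 and 229 normalised counts in OHT-treated PRC1CKO and 161, 111 and 148 in PRC1CPM. All 3 PRC1CPM libraries lay below all 3 PRC1CKO libraries, so RNA of the gene was still counted in PRC1CKO and was not the lower of the lines. Per the study's methods, the deletion in PRC1CKO covers the first exons of Ring1a. The difference of -0.86 (SE 0.28) was not called by limma (adjusted p = 0.0556), whereas a fit that took the replicate number as a block called it (adjusted p = 0.00191). Rnf2, which encodes RING1B (chr1:151469406-151500823), had 1489, 1565 and 1585 counts in PRC1CKO and 1724, 1295 and 1513 in PRC1CPM, and these ranges overlapped (difference -0.04, SE 0.22, limma adjusted p = 0.993). Counts over whole genes do not separate a floxed, inverted or wild-type exon, and therefore do not check the genotype at either locus.

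The cells carried ESC markers in both lines. The 5 ESC markers found in the table (Pou5f1, Nanog, Sox2, Zfp42 and Esrrb) summed to 31613 ± 2334 normalised counts in PRC1CKO and 31165 ± 5398 in PRC1CPM (mean ± SD, n = 3 each), and none was called. For Pou5f1, the core pluripotency factor, the difference was 0.25 (limma adjusted p = 0.723), for Nanog 0.29 (0.595) and for Sox2 0.25 (0.718). The main limma fit called no member of the wider list of 17 naive pluripotency factors in either direction, where the median difference was 0.05. With the replicate block 1 was higher (6.85% of all genes) and on the TMM scale 1 was lower (2.56% of all transcripts). In untreated cells limma called 3 of the 17 lower, against 0.283% of all transcripts, so the lines differed in part of this list before OHT.

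The median differences of chromosomes 1, 6, 11 and Y lay away from those of the other chromosomes, and their genes are therefore given apart. As described below, only part of chromosome 1 was shifted, and the genes on Y did not differ uniformly. Relative to the remaining chromosomes, the median difference was -0.24 on chromosome 1, 0.23 on chromosome 6, 0.35 on chromosome 11 and 3.04 on chromosome Y. In untreated cells the same medians were -0.20, 0.23, 0.36 and 2.84. The shifts thus had the same sign and similar sizes before and after OHT. Their part in the result for any single gene on these chromosomes was not tested.

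Over all chromosomes, 540 transcripts (3.23% of those tested, 518 gene symbols) were higher and 141 (0.844%, 131 symbols) lower in PRC1CPM than in PRC1CKO after OHT. Outside chromosomes 1, 6, 11 and Y, 330 of 13529 transcripts (2.44%, 320 symbols) were higher and 98 (0.724%, 92 symbols) lower. On these 4 chromosomes, 210 of 3181 (6.6%) were higher and 43 (1.35%) lower. The 3 libraries of the lines did not overlap for 298 of the 330 and 94 of the 98, against 8.64% and 3.51% of all transcripts tested there. The transcripts were chosen on these same libraries, which favours such separation, so it is a description and not a further test. With the replicate number as a block, limma called 1137 higher (6.8%) and 292 lower (1.75%) over all chromosomes, and 700 (5.17%) and 207 (1.53%) outside the 4. All of the 330 and 98 remained among these. The block used the same libraries and left each difference unchanged, so this is not an independent check.

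The counts depended on scale and on single libraries. Higher genes made up 79.3% of the calls on the spike-in scale and 62.5% on the TMM scale, where 713 were higher (4.27%) and 427 lower (2.56%). Of the 98 lower transcripts, 98 were also called on the TMM scale, and of the 330 higher ones 305. On the spike-in scale without the genomic DNA correction 491 were higher and 46 lower, 307 and 35 of them outside the 4 chromosomes. Leaving out PRC1CPM replicate 1, the library with the highest level, gave 334 higher and 388 lower transcripts, and leaving out PRC1CPM replicate 2, the lowest, gave 1255 and 105. Leaving out PRC1CPM replicate 3 gave 234 and 60, and PRC1CKO replicates 1, 2 and 3 in turn 353 and 47, 199 and 72, and 217 and 58. Outside the 4 chromosomes, 67 of the 330 and 25 of the 98 kept their call in each of these 6 fits.

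The lower and higher sets differed in their levels in untreated cells. Over the 98 lower transcripts, the median level was 300.1, 270.7 and 263.4 normalised counts in OHT-treated PRC1CKO and 135.6, 94.7 and 123 in OHT-treated PRC1CPM. In untreated cells it was 29.6 ± 5.8 and 30.2 ± 0.44 (SD, n = 3 each). Both treated lines thus stood above both untreated lines, PRC1CKO further than PRC1CPM. Over the 330 higher transcripts, the median level was 54.6 ± 6.07 in OHT-treated PRC1CKO and 142 ± 32.3 in OHT-treated PRC1CPM, against 71.7 ± 18.99 and 156 ± 21.2 in untreated cells. Here the lines already stood apart before treatment. The order of the treated lines in these medians follows from how the transcripts were chosen.

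Genes lower with inactive than with absent PRC1 included many developmental transcription factors. Hox genes, which set positional identity along the body axis, had the lowest median of the lists. Of 37 tested, 15 were lower and none higher, against 0.835% lower and 3.31% higher of all genes at 1 transcript per symbol. Their median difference was -0.99, and 36 of 37 had a difference below 0. Outside chromosomes 1, 6, 11 and Y, 12 of 18 were lower and none higher (0.73% and 2.52% of all genes there), with a median of -1.28. All 3 PRC1CPM libraries lay below all 3 PRC1CKO libraries for 26 of the 37, against 4.39% of all transcripts. The replicate block gave 21 lower and none higher (1.68% and 6.85% of all genes). Of the 15, 6 kept the call when any single library was left out (Hoxa10, Hoxa11, Hoxc9, Hoxc11, Hoxd10 and Hoxd11).

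Among the clusters, HoxD on chromosome 2 had 7 of 9 tested genes lower (median -1.26) and HoxC on chromosome 15 had 5 of 9 (median -1.34). HoxA on chromosome 6 had 2 of 11 (median -0.88) and HoxB on chromosome 11 had 1 of 8 (median -0.81). The last 2 clusters lie on chromosomes whose genes were on the whole higher in PRC1CPM. The called HoxC and HoxD genes ran from Hoxc8 to Hoxc12 and from Hoxd3 to Hoxd13. The genes of a cluster are neighbours and not independent observations, and Hoxd3 overlaps Hoxd4 in the annotation.

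Hoxd10 showed the pattern at the level of single libraries. Its normalised count was 119, 77.8 and 73.3 in OHT-treated PRC1CKO and 34.7, 7.73 and 24.1 in PRC1CPM, with no overlap (difference -2.16, SE 0.38, limma adjusted p = 4.54e-06). It was at most 7.67 in any untreated library. Hoxd13, the terminal gene of the cluster, had 374, 351 and 351 counts in PRC1CKO and 196, 153 and 196 in PRC1CPM (difference -0.99, SE 0.27, limma adjusted p = 0.0122). Hoxc11 had 28.9, 49.1 and 21.8 against 7.72, 3.09 and 2.19, a difference of -2.74 on few reads. In untreated cells the 11 Hox genes with enough reads had a median difference of -0.38, and none was called.

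The promoters of the higher transcripts held fewer CpG dinucleotides, the sequence feature of the CpG islands at which Polycomb complexes are found. In 300 bases around each annotated start (250 before and 50 after, GRCm38), the 98 lower transcripts had a median of 17.5 CpGs and 78.6% had at least 10. Transcripts not called outside chromosomes 1, 6, 11 and Y had a median of 19, and 75.9% had at least 10. The 330 higher transcripts had a median of 7, and 33.3% had at least 10. CpG content varied with expression level, so the shares were also read within bands of mean count. Below 100 counts, windows with at least 10 CpGs made up 81.3% of 32 lower, 15.2% of 165 higher and 45.1% of 2598 uncalled transcripts. From 100 to 1000 counts they made up 74.5% of 47, 43.5% of 124 and 79.2% of 5822. From 1000 counts upward they made up 84.2% of 19, 75.6% of 41 and 88.9% of 4678. The higher transcripts thus had the smallest share in each band. The lower transcripts had a larger share than uncalled ones below 100 counts and a smaller one in the other bands.

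To show the contrast, the 250 bases before the start are given for 2 genes that were lower, Hoxd10 (chr2:74691641-74691890, + strand) and Fezf2 (chr14:12345866-12346115, - strand), and for 2 that were higher, Actc1 (chr2:114052876-114053125, - strand) and Mt4 (chr8:94136954-94137203, + strand). They were copied from RefSeq on GRCm38.p6 and read 5′ to 3′ on the strand of the gene, with each CpG in capitals.
Hoxd10: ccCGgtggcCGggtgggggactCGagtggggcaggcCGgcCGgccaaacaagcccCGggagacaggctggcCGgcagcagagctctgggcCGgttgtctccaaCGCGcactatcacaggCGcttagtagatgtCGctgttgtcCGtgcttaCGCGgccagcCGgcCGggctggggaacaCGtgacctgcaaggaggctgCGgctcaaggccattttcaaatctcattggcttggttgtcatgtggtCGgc
Fezf2: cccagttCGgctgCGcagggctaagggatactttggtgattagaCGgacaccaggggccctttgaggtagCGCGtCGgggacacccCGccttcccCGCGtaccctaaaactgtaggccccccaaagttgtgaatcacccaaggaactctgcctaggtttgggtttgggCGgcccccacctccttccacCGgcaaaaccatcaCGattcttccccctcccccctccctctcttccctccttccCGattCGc
Actc1: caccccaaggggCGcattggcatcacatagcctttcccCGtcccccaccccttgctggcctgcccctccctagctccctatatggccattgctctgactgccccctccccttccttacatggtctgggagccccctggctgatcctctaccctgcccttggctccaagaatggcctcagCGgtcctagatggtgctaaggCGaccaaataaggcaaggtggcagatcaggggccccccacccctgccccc
Mt4: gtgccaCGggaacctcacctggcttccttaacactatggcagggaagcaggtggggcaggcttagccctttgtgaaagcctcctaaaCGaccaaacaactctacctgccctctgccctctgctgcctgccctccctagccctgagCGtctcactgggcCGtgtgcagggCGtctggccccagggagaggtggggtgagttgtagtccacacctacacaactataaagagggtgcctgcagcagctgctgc
The Hoxd10 stretch held 20 CpGs and that of Fezf2 14, against 4 for Actc1 and 5 for Mt4. These are examples, and some genes with large differences went the other way. In the 300-base windows the lower genes Akr1c21, Ggn and Meis2 had 1, 2 and 7 CpGs, and the higher gene Nnat had 17. The RefSeq start of Actc1 lies 64 bases from the start in the deposited table.

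Other developmental transcription factors followed the Hox genes. Of 175 tested, 29 were lower and none higher (0.835% and 3.31% of all genes), and 21 of 142 were lower outside the 4 chromosomes (0.73%). The median difference was -0.38, and 130 had a difference below 0. With the replicate block 46 were lower and 4 higher (1.68% and 6.85% of all genes), and on the TMM scale 53 and 2 (2.56% and 4.27% of all transcripts). Meis2, a homeodomain cofactor of Hox proteins (chr2:115861264-116065058), had the most negative difference outside the 4 chromosomes. It had 1266, 920.1 and 1123 normalised counts in PRC1CKO and 183, 139 and 137 in PRC1CPM, a difference of -2.84 (SE 0.26, limma adjusted p = 3.94e-25). In untreated cells it had 235, 140.1 and 79.5 counts in PRC1CKO and 58.8, 61.3 and 67.8 in PRC1CPM. The related Meis1 on chromosome 11 was also lower, by a smaller margin (-0.72).

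Several of these factors act in the neural plate, neural crest and limb. Tfap2a, a neural crest and epidermal factor, had 328, 292 and 287 counts in PRC1CKO and 80.1, 72.7 and 84.3 in PRC1CPM (difference -1.92, SE 0.29, limma adjusted p = 2.82e-08). Its untreated counts were between 13.2 and 33.8 in both lines. Forebrain regulators had fewer reads, and Fezf2 and Nr2e1 among them were not on the list. DESeq2 did not call Nr2e1 (DESeq2 adjusted p = 0.0844). Fezf2 had 19.9, 22.2 and 17.4 counts in PRC1CKO against 3.86, 1.55 and 2.19, Nkx2-1 23.5, 33.3 and 41.0 against 5.79, 4.64 and 7.67, and Nr2e1 16.3, 22.2 and 20.9 against 5.79, 7.73 and 0. Pax9, which acts in tooth and pharyngeal pouch development, had 130.2, 112 and 92.5 counts against 52.1, 40.2 and 53.7 (difference -1.18, limma adjusted p = 0.0185). Pax6, Pax7, Six3, Foxa1, Tbx15 and Isl2 were lower too, with differences of -1.01 to -1.37.

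The 29 include Pax3, Lhx9, Tfap2b and Pou3f3 on chromosome 1, Dlx5 on chromosome 6, and Ebf1 and Meis1 on chromosome 11. Pax3, a neural crest and muscle factor, had 661, 549 and 644 counts in PRC1CKO and 264, 196 and 171 in PRC1CPM (difference -1.57, SE 0.26), and between 5.65 and 21.7 in the untreated libraries. Of the 29, Pax3, Gata6, Lhx9, Nkx2-1, Ebf2, Tfap2a, Meis2 and Mecom were among those that kept the call without any single library.

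**Figure D1:**
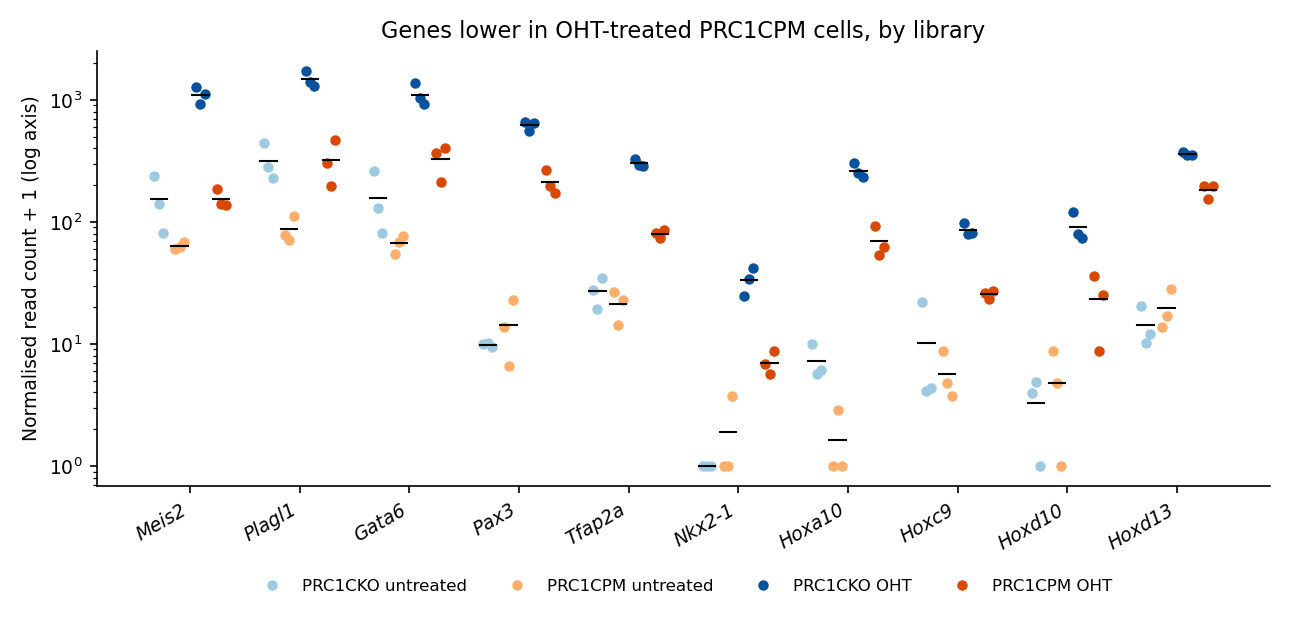
Normalised read count plus 1 (log axis) of 10 genes that were lower in OHT-treated PRC1CPM than in OHT-treated PRC1CKO cells. Points are the 3 libraries of each of the 4 groups and bars their means; after OHT the PRC1CPM points lie below the PRC1CKO points for each gene, and for Hoxd10 and Hoxd13 both lie above all untreated points.

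Markers of primitive endoderm, an extraembryonic lineage that ESCs can enter, differed in part. Of 15 tested, 5 were lower and none higher, against 0.835% and 3.31% of all genes, while 7 had a difference above 0 (median -0.63). Under the replicate block 5 were lower and 1 higher (1.68% and 6.85% of all genes). The 5 were the transcription factors Gata6 and Gata4, the receptor Pdgfra and the basement membrane collagens Col4a1 and Col4a2. Gata6 had 1361, 1029 and 914 counts in PRC1CKO and 369, 210.3 and 404 in PRC1CPM (difference -1.78, SE 0.25, limma adjusted p = 2.99e-10), and it overlaps the noncoding gene 1010001N08Rik in the annotation. Gata6 alone kept the call without any single library, and Pdgfra lost it without PRC1CKO replicate 1. Before OHT the difference was -1.08 for Gata6 and -0.79 for Pdgfra, called lower with the replicate block but not without it. Without the block 2 markers of the list were called lower before OHT (0.283% of all transcripts).

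The 6 defining primitive endoderm markers (Gata4, Gata6, Sox17, Sox7, Dab2 and Pdgfra) summed to 4324, 3329 and 3094 counts in PRC1CKO and 2278, 1516 and 1979 in PRC1CPM, with 3 of 6 lower. Pdgfra had the most reads among them and none was at 0. Dab2, an endocytic adaptor, was not called and overlapped, at 450.1 to 586 counts in PRC1CKO and 496 to 664 in PRC1CPM. In bulk RNA, fewer cells of a type and less RNA per cell cannot be told apart, and the part of such cells in the other results was not tested.

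Sums of the defining markers of other cell types overlapped between the lines for mesoderm (515 ± 74.4 in PRC1CKO and 539 ± 174 in PRC1CPM) and for neuroectoderm (4230 ± 367 and 3546 ± 972). Trophoblast markers summed to 1094 ± 126 and 1418 ± 277, with Tfap2c taking most reads, and none of them was called. Fibroblast markers summed to 3519 ± 405 in PRC1CKO and 8489 ± 5493 in PRC1CPM, carried by Col1a1 with 12136 counts in PRC1CPM replicate 1. Of the other fibroblast markers, Col1a2 ran from 371 to 456 counts in PRC1CKO and from 458 to 1180 in PRC1CPM, Col3a1 from 61.1 to 127 and from 64.9 to 212, and Thy1 from 885 to 987 and from 784 to 1209, each highest in PRC1CPM replicate 1. Dcn had no more than 1.93 counts in any library and Postn no more than 17.4. The part of such cells in the other results was not tested. In the neural marker list, Pax6, Nefm and Zic1 were lower among 16 tested and none was higher (0.835% and 3.31% of all genes). With the replicate block 3 were lower and 2 higher (1.68% and 6.85% of all genes).

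Genes higher with inactive than with absent PRC1 belonged to several lists. The 10 largest outside the 4 chromosomes were Nxf3, Gm21283, Cxcl11, Nnat, Actc1, Atp6ap1l, Gm10754, Ldb2, Mt4 and Mat1a, with differences of 2.98 to 4.05. Nxf3, an X-linked relative of the mRNA export factor NXF1 (chrX:136072099-136085255), had 18.1, 7.4 and 15.7 counts in PRC1CKO and 243, 173 and 284 in PRC1CPM (difference 4.05, SE 0.36, limma adjusted p = 6.74e-26). It differed as much in untreated cells, at 19.2 to 37.2 against 368 to 584. Actc1, cardiac alpha actin, had 5.42, 1.85 and 0 counts against 23.2, 27.8 and 16.4. Mt4, a metallothionein of stratified epithelia, had 5.42, 0 and 5.23 against 34.7, 12.4 and 46.0. Except for Nxf3, Nnat and Gm10754, the 10 had under 100 counts in each treated PRC1CPM library, and Gm21283, Cxcl11, Nnat and Gm10754 overlap other genes of the table.

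On chromosome X, which was not shifted as a whole (median difference relative to other chromosomes 0.0094), 35 of 578 transcripts were higher and 1, Ldoc1, lower. The 6.23% called was the highest share among the 17 chromosomes outside the 4 set apart, where the others ran from 1.8% to 4.15%. The X-inactivation genes Xist, Tsix, Jpx and Ftx were not called.

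Interferon response genes, which defend cells against viruses, were higher in part. Of 18 tested, 4 were higher (Rsad2, Psmb8, Cxcl10 and Irf1), none was lower, 17 had a difference above 0 and the median was 0.44. Of all genes 3.31% were higher, and with the replicate block 6 of the list were (6.85% of all genes). Outside the 4 chromosomes 3 of 15 were higher (2.52% of all genes). In untreated cells the median of the list was 0.56, and 1 member was called higher (1.36% of all transcripts). Rsad2, the antiviral protein viperin, had 10.8, 7.4 and 6.98 counts in PRC1CKO and 59.8, 40.2 and 41.6 in PRC1CPM. Psmb8, an immunoproteasome subunit that lies within 1 Mb of Ring1 on chromosome 17, had 43.4, 33.3 and 27.0 against 212, 113 and 112 (difference 2.00, SE 0.34, limma adjusted p = 1.57e-06). Irf1, an interferon-induced transcription factor on chromosome 11, had 409, 353 and 352 against 1014, 650.2 and 812. Cxcl10 lost its call without PRC1CKO replicate 2 or 3 or PRC1CPM replicate 1, and it overlaps Art3.

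Some guanylate-binding proteins, which are interferon-induced GTPases, were higher as well. They were not on the list and were chosen after their values were seen, so their differences cannot be ranked against it. Gbp2 (chr3:142620663-142638008) had 108, 51.8 and 83.7 counts in PRC1CKO and 784, 482 and 356 in PRC1CPM (difference 2.70, SE 0.28, limma adjusted p = 1.68e-18). Gbp3 (2.76) and Gbp7 (2.25) were likewise higher, as was the related Irgm1 on chromosome 11 (1.49). All 4 kept the call without any single library. Gbp2, Gbp3 and Gbp7 are paralogs, and how reads shared between them were counted was not tested. Their untreated differences were 1.17, 1.87, 1.80 and 1.48 in that order. The untreated count of Gbp2 ran from 129 to 489 in PRC1CKO and from 314 to 724 in PRC1CPM, and these ranges overlapped.

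Promoters of some of these genes hold the core of the interferon-stimulated response element, taken here as GAAA, any 2 bases and GAAA. Searched on both strands in the 300-base windows, it occurred in 2.70% of all tested transcripts, in 21 of the 330 higher transcripts (6.36%), in 3 of the 98 lower ones (3.06%) and in 7 of 18 of the interferon list. In the RefSeq promoter set as a whole, 3.43% of 32817 windows held it. The 250 bases before the start of Gbp2 (chr3:142620413-142620662, + strand) and Cxcl10 (chr5:92348890-92349139, - strand) show where it falls, with the match in capitals.
Gbp2: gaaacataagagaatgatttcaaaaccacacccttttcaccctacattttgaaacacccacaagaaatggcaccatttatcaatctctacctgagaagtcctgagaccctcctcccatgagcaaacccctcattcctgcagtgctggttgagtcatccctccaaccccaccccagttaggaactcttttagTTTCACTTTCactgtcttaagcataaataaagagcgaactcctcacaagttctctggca
Cxcl10: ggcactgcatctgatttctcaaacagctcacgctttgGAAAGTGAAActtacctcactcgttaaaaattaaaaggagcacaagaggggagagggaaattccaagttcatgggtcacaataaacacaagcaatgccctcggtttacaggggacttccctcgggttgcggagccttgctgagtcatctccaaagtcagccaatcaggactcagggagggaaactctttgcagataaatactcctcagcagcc
The match in Gbp2 is on the opposite strand and therefore reads as its reverse complement. A match is a description of these bases and not evidence that a factor binds.

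Germline genes, which PRC1 variants help to silence in ESCs, were higher in part. Of 45 tested, 7 were higher (3.31% of all genes), none lower, and the median was 0.04 (-0.06 on the TMM scale). All 3 PRC1CPM libraries lay above all 3 PRC1CKO libraries for 13 (11.7% of all transcripts) and below them for 7 (4.39%). Outside the 4 chromosomes 4 of 38 were higher (2.52% of all genes). In untreated cells 5 were called higher (1.36% of all transcripts), among them Asz1 (2.55) and Meiob (1.43). Asz1, a piRNA pathway protein on chromosome 6, had 10.8, 7.4 and 9.6 counts in PRC1CKO and 60.8, 56.4 and 95.3 in PRC1CPM (difference 2.78, SE 0.43). Meiob, a meiotic single-strand DNA-binding protein, had 73.2, 55.5 and 61.1 against 272, 118 and 161 (difference 1.45, SE 0.31). The testis tubulins Tuba3a (1.29) and Tuba3b (1.96) are near-identical copies on chromosome 6, and Tdrd12, Rec8 and Smc1b were higher by 0.72 to 0.81. With the replicate block 10 were higher and 1 lower (6.85% and 1.68% of all genes). Of the 7, Asz1, Meiob, Tuba3a and Tuba3b kept the call without any single library. All but 1 of the 20 genes on the list for the cleavage-stage (two-cell) state are not analysed here, and Eif1a, the member tested, had a difference of 0.10.

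Imprinted genes, expressed from 1 parental allele, went both ways. Of 43 tested, 5 were higher (Nnat, H19, Grb10, Slc22a18 and Peg10) and 4 lower (Plagl1, Kcnq1ot1, Dio3 and Airn), against 3.31% and 0.835% of all genes. With the replicate block 9 were higher and 4 lower (6.85% and 1.68% of all genes). Outside the 4 chromosomes 3 of 34 were higher and 4 lower (2.52% and 0.73% of all genes there). Plagl1, a growth-regulating zinc finger protein (chr10:13090788-13131695), had 1735, 1386 and 1284 counts in PRC1CKO and 305, 194 and 464 in PRC1CPM (difference -2.27, SE 0.24, limma adjusted p = 1.75e-17). Kcnq1ot1, a long noncoding RNA that silences its domain, had 11957, 8410.1 and 10397 against 5133, 4082 and 3886. H19, a maternally expressed noncoding RNA, had 289, 139 and 206 against 1098, 574 and 653 (difference 1.87, SE 0.26). Nnat, a neuronal membrane protein gene, had 3.62, 3.70 and 19.2 against 89.8, 35.6 and 120.5.

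Several imprinted genes differed before OHT as well. The untreated difference was 3.15 for H19, 2.68 for Nnat, 3.06 for Grb10, 1.63 for Slc22a18 and -1.84 for Plagl1, and limma called each of these 5. That of Kcnq1ot1 was -0.79 (called with the replicate block alone), that of Dio3 0.03 and that of Airn -0.12. Airn overlaps Igf2r, Kcnq1ot1 overlaps Kcnq1 and Nnat lies within Blcap, and the strand setting of the counting is not given in the sources used here, so reads of these pairs may not have been separated. Nnat, H19, Grb10, Plagl1, Kcnq1ot1 and Dio3 kept their calls without any single library.

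Among signalling genes, the Nodal inhibitors Lefty1 and Lefty2 and the BMP inhibitor Nog were higher. Of 43 genes of the BMP, Nodal and TGF-beta pathways, 5 were higher (3.31% of all genes) and none lower, at a median of -0.02, and with the replicate block 6 were higher (6.85%). Outside the 4 chromosomes 1 of 35 was higher, against 2.52% of all genes, and the other 4 calls lie on those chromosomes. In untreated cells 3 were called higher and 1 lower (1.36% and 0.283% of all transcripts). Lefty2, which blocks Nodal outside the cell, had 2021, 1549 and 2347 counts in PRC1CKO and 5053, 3919 and 6224 in PRC1CPM (difference 1.36, SE 0.21, limma adjusted p = 5.7e-08). Its untreated counts were 2920, 2647 and 1737 in PRC1CKO and 5907, 6698 and 6776 in PRC1CPM, a difference of 1.44. Lefty1 beside it had 983, 866 and 1028 against 2229, 2213 and 2623 (1.29, SE 0.22). Both lie on chromosome 1 (chr1:180893119-180899102 and chr1:180935039-180938401), in the distal part that was not lower in PRC1CPM, and they are close paralogs. Nog, which encodes Noggin and lies on chromosome 11, had 48.8, 51.8 and 38.4 against 207, 116 and 120.5. Id2 (0.80), a BMP target, and Gdf3 (0.74), a ligand on chromosome 6, lost the call in 5 of the 6 fits that left out a library.

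Genes of glycolysis and the hypoxia response had the highest share of calls among the higher lists with 20 or more tested members. Of 31 tested, 11 were higher (3.31% of all genes), none lower, 30 had a difference above 0 and the median was 0.58 (0.48 on the TMM scale). The replicate block gave 14 higher (6.85% of all genes), and outside the 4 chromosomes 8 of 24 were higher (2.52%). Slc2a1, the main glucose transporter, had 19676, 12103 and 15869 counts in PRC1CKO and 33256, 19718 and 29699 in PRC1CPM (difference 0.79, SE 0.18, limma adjusted p = 0.000958). Bnip3, a mitophagy receptor induced by hypoxia, had 1043, 362 and 532 against 2066, 626 and 1723 (1.16, SE 0.24). Tpi1, triosephosphate isomerase on chromosome 6, had 2363, 1206 and 1289 against 4938, 2031 and 3821 (1.13, SE 0.22). PRC1CPM replicate 2 lay within the PRC1CKO range for Bnip3 and Tpi1, and PRC1CKO replicate 1 and PRC1CPM replicate 1 were the highest libraries of their lines for all 3. Between libraries of the same replicate number, PRC1CPM was the higher each time for all 3 genes.

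All 3 PRC1CPM libraries lay above all 3 PRC1CKO libraries for 7 of the 31 genes (11.7% of all transcripts), and of the 11 called only Tpi1 kept the call when each library in turn was left out. Aldoa, Aldoc, Egln3, Hk2, Ldha, P4ha1, Pdk1 and Pfkp were the other members called, with differences of 0.62 to 1.16. In untreated cells the median difference of the list was 0.30 and no member was called. The level of these genes moved with the overall level of a library, PRC1CPM replicate 2 having the lowest and replicate 1 the highest median count, and the part of this in the result was not tested.

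**Figure D2:**
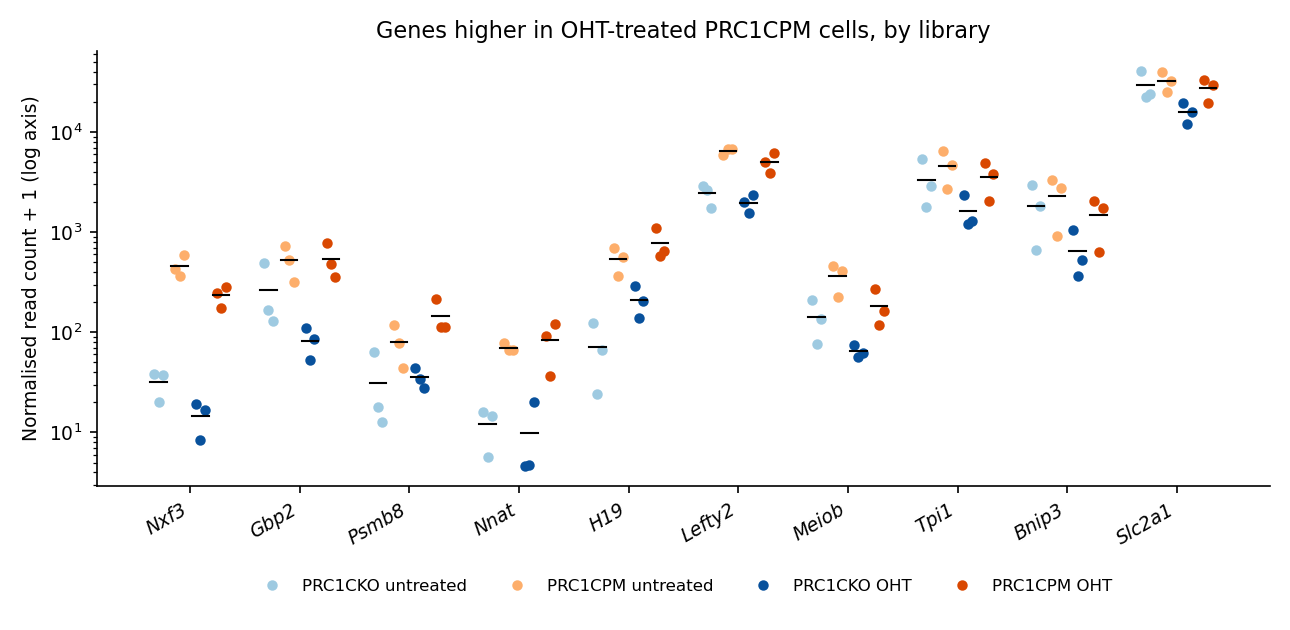
Normalised read count plus 1 (log axis) of 10 genes that were higher in OHT-treated PRC1CPM than in OHT-treated PRC1CKO cells. Points are the 3 libraries of each of the 4 groups and bars their means; Nxf3, Nnat and H19 were already higher in untreated PRC1CPM, whereas the points of Tpi1, Bnip3 and Slc2a1 lie close together and spread widely within each group.

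Other lineage lists held few calls. Among 13 tested mesoderm and primitive streak genes, Actc1 and Fgf8 were higher (3.31% of all genes) and none was lower, with a median of 0.39. Fgf8, a ligand of gastrulation, had 50.6, 35.2 and 67.2 counts against 240.3, 85.8 and 114, and lost the call without PRC1CKO replicate 2 or PRC1CPM replicate 1. None of the 8 trophoblast genes tested was called, and with the replicate block Cdx2 and Gata3 were lower (1.68% of all genes). Cdx2 had 120.2, 68.5 and 55.8 counts against 65.6, 24.7 and 26.3 (difference -1.12, limma adjusted p = 0.0504). No gene of 13 formative and primed pluripotency genes was called, and with the replicate block 1 was lower (1.68% of all genes).

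**Figure D3:**
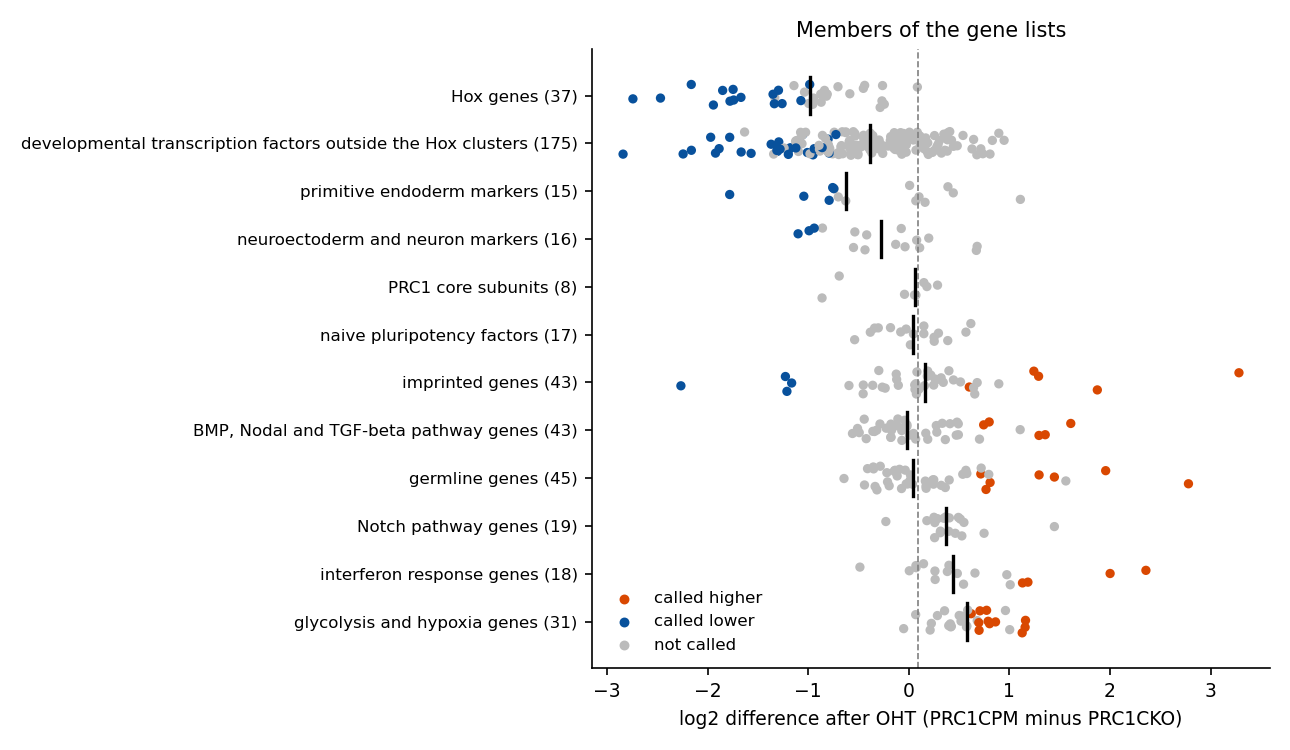
log2 difference (PRC1CPM minus PRC1CKO after OHT) of each tested member of the gene lists, with the number tested in parentheses. Orange points were called higher, blue points lower and grey points neither; black bars are list medians and the dashed line is the median of all transcripts, 0.10. The Hox median of -0.99 lies to the left of it and the glycolysis and hypoxia median of 0.58 to the right.

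Few subunits of the Polycomb complexes themselves were called. The main limma fit called none of the 8 core PRC1 genes, where the median was 0.06. With the replicate block Ring1 and Bmi1 (-0.69) were lower (1.68% of all genes). On the TMM scale 2 were lower (2.56% of all transcripts), and DESeq2 called Ring1 lower (DESeq2 adjusted p = 0.0152). Of 9 genes on the list for canonical PRC1 subunits, Scml2 on chromosome X (1.41) and Phc1 on chromosome 6 (1.00) were higher, against 3.31% of all genes, and none was lower. Phc1 had 3477, 3166 and 3457 counts in PRC1CKO and 7233, 5121 and 8190.2 in PRC1CPM, and both genes kept the call without any single library. Before OHT the difference was 1.93 for Scml2, which was called, and 0.65 for Phc1, which was called with the replicate block alone. Of 22 accessory subunits of variant PRC1, Skp1a on chromosome 11 was higher (0.65), against 3.31% of all genes, and with the replicate block 2 were higher and 1 lower (6.85% and 1.68%). Of 11 PRC2 genes, Jarid2, an accessory subunit that binds the ubiquitylated histone, was lower (0.835% of all genes), at 35503, 27930.4 and 31846 counts against 22444, 18469.5 and 19145 (difference -0.66, SE 0.18, limma adjusted p = 0.0083). Its untreated difference was -0.60, called with the replicate block alone. Jarid2 lost the call without PRC1CKO replicate 1 or 3 or PRC1CPM replicate 3, and Skp1a in 5 of the 6 fits that left out a library.

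The called differences were then set beside those between the same lines without OHT, which share no library with them. Of the 540 higher transcripts, 507 could also be tested in untreated cells. There, 498 (98.2%) had a difference above 0, as did 68% of all transcripts tested in both conditions, and limma called 133 in the same direction, against 1.36% of all transcripts tested in both conditions. With the replicate block it called 345, against 9.29%. Their median was 0.90 untreated and 1.22 after OHT. Of the 141 lower transcripts, 103 could be tested, 73 (70.9%) had a difference below 0, against 32% of all, and 15 were called lower in untreated cells (0.283% of all), or 38 with the block (1.38%), while 1 was called higher there, or 5 with the block. Outside the 4 chromosomes, 49 of 71 lower transcripts had the same sign, and their median was -0.28 untreated and -1.07 after OHT.

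Line and treatment were also tested as an interaction over all 12 libraries. Of 16710 transcripts, 4 had an adjusted p below 0.05 (0.0239%), and 324 (1.94%) with the replicate block. Of the 141 lower transcripts, 2 passed, and 35 with the block, each with the difference more negative after OHT. Of the 540 higher ones, 2 passed, and 38 with the block, of which 32 had the larger positive difference after OHT. The transcripts were chosen on the difference after OHT, which favours these directions. For developmental transcription factors outside the Hox clusters, the median difference was 0.36 untreated and -0.38 after OHT. The first of these medians covers the 111 of the 175 genes that had enough reads without OHT.

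**Figure D4:**
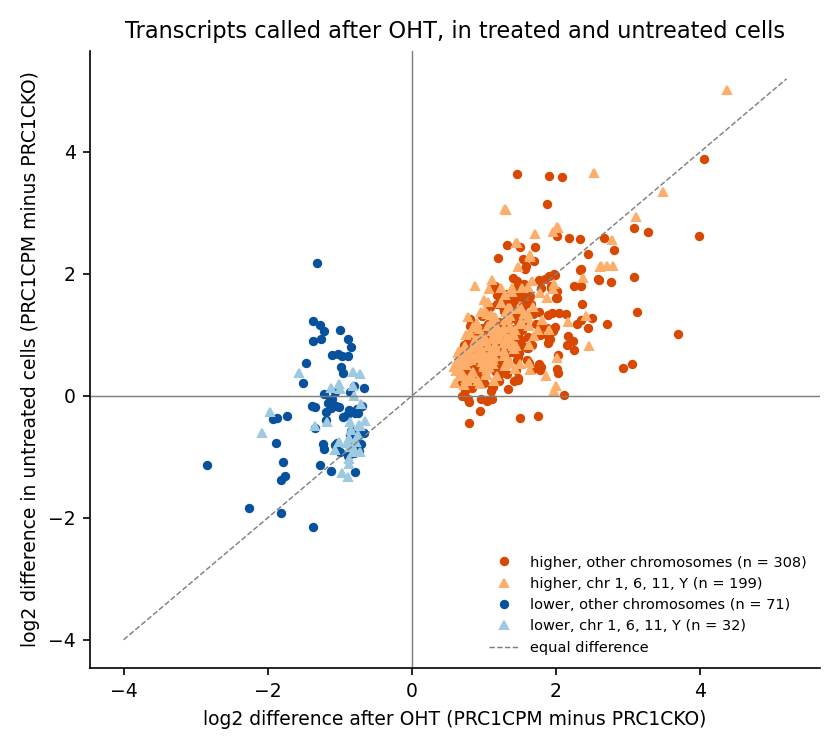
log2 difference between the lines in untreated cells (vertical axis) against that after OHT (horizontal axis) for transcripts called after OHT and tested in both conditions. Orange points were higher and blue points lower after OHT, triangles lie on chromosomes 1, 6, 11 and Y, and the dashed line marks equal differences; most orange points lie above 0 on the vertical axis, while blue points fall on both sides of it.

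On chromosome 11, 149 of 1361 transcripts were higher (10.9%) and 3 lower, namely Ebf1, Hoxb8 and Meis1. Its level relative to the other chromosomes was -0.0089, -0.021 and -0.026 in the PRC1CKO libraries and 0.30, 0.31 and 0.36 in PRC1CPM. On chromosome 6, 43 of 844 were higher and 8 lower, and the relative levels were -0.19, -0.22 and -0.20 against 0.016, 0.062 and 0.041. The libraries of the lines were apart on both chromosomes. In windows of 20 Mb, the excess was positive throughout, between 0.26 and 0.38 along chromosome 11 and between 0.14 and 0.29 along chromosome 6. For chromosomes 1, 6, 11 and Y an exact two-sided permutation test of the relative level gave p = 0.1, the smallest that 3 against 3 libraries allow, or 0.35 adjusted over the 21 chromosomes. Chromosomes 2 and X reached the same p with differences in level of only -0.030 and 0.062, so the test does not set the 4 apart, and they were chosen because they differ.

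The largest called differences on these chromosomes were on chromosome 11 Chrne (2.79), a subunit of the muscle acetylcholine receptor, Lgals3bp (2.70), a secreted glycoprotein, and Slfn4 (2.53), a member of a family of close paralogs. Lgals3bp had 27.1, 23.1 and 21.8 counts in PRC1CKO and 245, 136 and 126 in PRC1CPM. On chromosome 6 they were Asz1, the unnamed transcript 4933427D06Rik (2.61) and Hoxa11 (-2.47). Hoxa11 had 120.2, 65.7 and 96.8 counts against 20.3, 10.8 and 17.5, and thus went against the shift of its chromosome.

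On chromosome 1, 15 of 971 transcripts were higher and 32 lower, and the shift covered only part of its length. From its start to 140 Mb, 30 of 657 transcripts were lower and 1 higher, with a median of -0.38 relative to the other chromosomes (-0.35 untreated). From 140 Mb to its end, 14 of 314 were higher and 2 lower, with a median of 0.056 (0.13 untreated). The boundary was set after the values were seen and is not sharp, since the 6 transcripts from 140 to 145 Mb had a median of -0.34 (-0.31 untreated) and the 3 from 145 to 150 Mb -0.57 (0.20 untreated). In the proximal part the levels were 0.073, 0.23 and 0.25 in PRC1CKO and -0.20, -0.17 and -0.18 in PRC1CPM. In the distal part they were -0.20, 0.0089 and 0.096 against 0.015, 0.055 and 0.025, and PRC1CKO replicate 1 stood apart from the other 2 libraries of its line.

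Developmental genes that were lower on chromosome 1 in its proximal part included Tfap2b (-2.16), Lhx9 (-1.97), Pax3, Pou3f3 and the ligand Wnt6. Mr1 (2.37), which presents vitamin metabolites to T cells, was higher in the distal part, at chr1:155127878-155146780. Of 9 transcripts tested within 1 Mb of Rnf2, Swt1 and Trmt1l were lower and none was higher (0.844% and 3.23% of all transcripts). Of 65 within 1 Mb of Ring1 on chromosome 17, Kank3 and Psmb8 were higher, a share close to that of all transcripts, and none was lower.

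On chromosome Y 5 genes were tested. Uty, a demethylase paralog, had 123, 96.3 and 190.2 counts in PRC1CKO and 1505, 1417 and 1493 in PRC1CPM (difference 3.48, SE 0.25, limma adjusted p = 1.06e-38). Kdm5d, a histone demethylase, had 1.81, 5.55 and 12.2 against 124, 102 and 169, and Ddx3y, an RNA helicase, 72.3, 62.9 and 122 against 739, 470.1 and 1072. These 3 were also called in untreated cells, with differences of 2.93 to 5.02. Usp9y had 259, 329 and 326 counts against 239, 380.4 and 604, and Eif2s3y 1999.5, 2109 and 2099.7 against 2666, 1748 and 2381. Both sets of ranges overlapped and neither gene was called. The 5 genes lie together at chrY:897788-1459782, and the difference between the lines was not uniform among them.

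**Figure D5:**
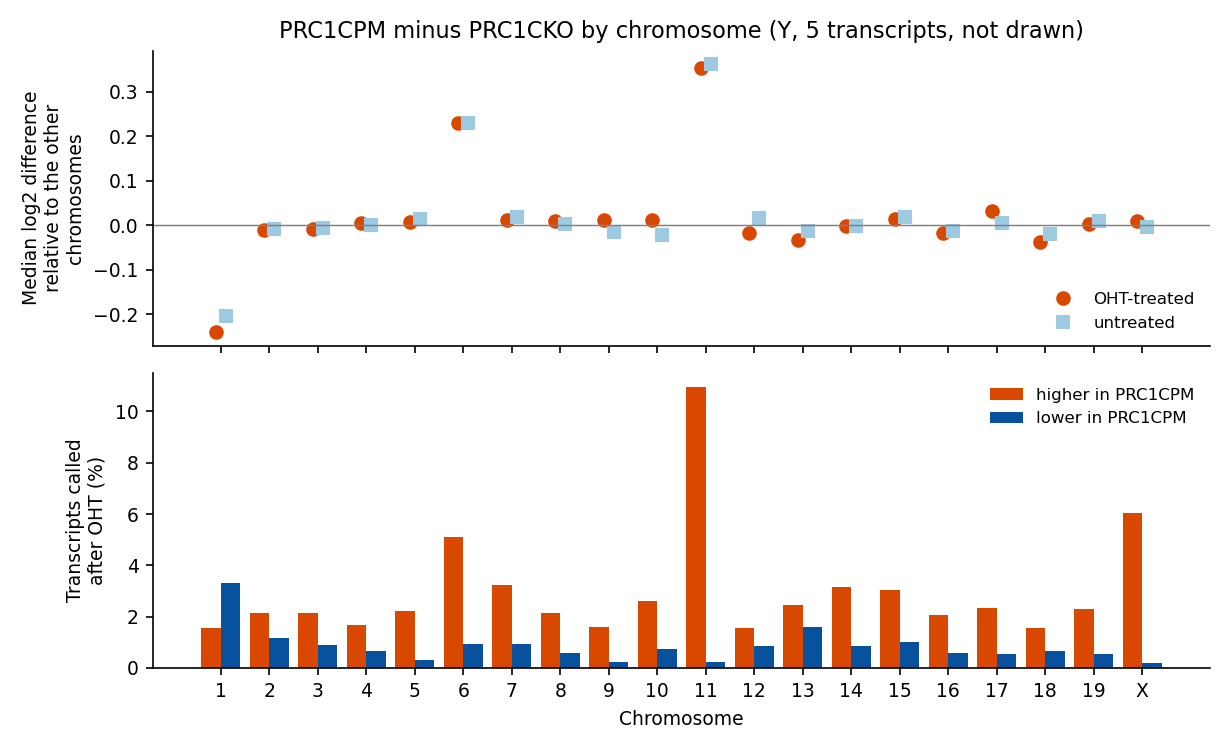
Top, median log2 difference of each chromosome minus that of the chromosomes other than 1, 6, 11 and Y, after OHT (orange circles) and in untreated cells (light blue squares); bottom, share of tested transcripts called higher (orange) and lower (blue) after OHT. Chromosome Y is left out for scale; chromosomes 1, 6 and 11 lie at -0.24, 0.23 and 0.35 after OHT, and the others between -0.038 and 0.031.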

How the data were processed

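RNA-seq values came from the deposited gene table of the 12 RNA libraries, of which 6 were from OHT-treated cells. Per the study's methods, the authors discarded ribosomal DNA reads with Bowtie 2, aligned the rest with STAR and then Bowtie 2 to the joined mm10 and dm6 genomes, removed PCR duplicates and counted unique reads over genes. The deposited values are a signal, namely those reads divided by a DESeq2 size factor from the Drosophila genes, which the authors corrected for the spike-in ratio in matched genomic DNA. The strand setting is not given in the sources used here. The deposited table also holds the authors' own comparisons, DESeq2 log2 fold changes and adjusted p-values, and neither these nor their list of partially derepressed genes were used. No column of per-sample values was left out (0).

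Whole reads were recovered, with 100% of values within 0.02 of a whole number. The main test was limma 3.58.1 (R 4.3.3) with a mean-variance trend on log2(normalised count + 1) of the 6 OHT-treated libraries, without the replicate number, and Benjamini-Hochberg adjustment over all 16710 transcripts. edgeR 4.0.16 and DESeq2 1.42.0 on the recovered reads were alternatives. Replicate numbers come from the labels. Same-numbered libraries of the lines deviated together (r = 0.25, 0.14 and 0.17 after OHT and 0.22, 0.40 and 0.19 untreated, across transcripts, the labels not saying what a number marks), so the numbers were taken to pair them and the count of calls with the block is given beside those of a list where it differs. The methods call the libraries biological replicates, and p-values cover these libraries alone. The prior degrees of freedom of the limma fit were infinite, so that each SE and p rests on the spread that the trend gives at a gene's level and not on the gene's own spread. DESeq2, which estimates a dispersion for each gene, did not call 25 of the named genes that limma called, among them Ldb2 (DESeq2 adjusted p = 0.506).

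Genes were named by rule, with 1 transcript per symbol. They were Ring1, Rnf2, Oxtr and Pax9, the 10 largest called differences each way outside chromosomes 1, 6, 11 and Y without overlap of the lines, the 3 largest on chromosomes 1, 6 and 11, all on Y, each called list member, the largest member of each list, and Pou5f1, Nanog and Sox2. Marker and list genes outside this rule, neighbouring genes and Gbp2, Gbp3, Gbp7 and Irgm1 were named after their values were seen. A few genes that the rule names are not reported here. The members and lists were chosen with earlier results of these data known. On counts simulated for this comparison (16583 genes), limma recovered 87 of 100 genes changed by 1 on the log2 scale and 99 of 100 changed by 2, and called 4 unchanged genes. Each simulated gene had the spread of the trend at its level, with no spread of its own and no effect of a library. That is what the limma fit assumes, so the simulation does not show how often real genes are called wrongly. Promoter windows came from GRCm38.p6 and RefSeq, whose promoter set held 453 of 649 called symbols. Python 3.11.15, numpy 2.4.6, pandas 2.3.3, scipy 1.17.1 and matplotlib 3.10.9 were used for the rest.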

Additional observations from a re-analysis of the deposited data

Results flagged for a closer look

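The difference between the lines changed with OHT for 3 of the 147 named genes by a test of the interaction over all 12 libraries (limma without the replicate block, adjusted p below 0.05). With the block it changed for 32, among them Meis2, Pax3, Pax7 and Hoxd11. Of all transcripts, 0.0239% passed without the block and 1.94% with it. Many named genes were chosen on their difference after OHT, which favours such a change. For Ebf2, a neuronal and adipocyte transcription factor on chromosome 14, the difference after OHT minus the difference before was -3.48. Ebf2 had 5.96, 6.16 and 1.69 counts in untreated PRC1CKO and 15.3, 32.04 and 21.7 in untreated PRC1CPM, then 934, 680.3 and 692 in treated PRC1CKO and 397, 319 and 226 in treated PRC1CPM. PRC1CPM was thus higher before OHT and lower after it, with no overlap in either condition. The untreated libraries held only 4, 8 and 2 reads of Ebf2 in PRC1CKO and 12, 34 and 16 in PRC1CPM. The difference before OHT, and with it the size of the change, therefore rests on few reads. Ebf2 overlaps 4930438E09Rik and Gm6878 in the annotation. For Mecom, a zinc finger factor of blood stem cells on chromosome 3, the change was -2.44. Mecom had 17.9, 20.01 and 25.4 against 61.4, 59.4 and 29.8 counts before OHT, and 879, 589.6 and 646 against 406, 269.8 and 211 after it, again without overlap, although its difference before OHT alone was not called (1.16, limma adjusted p = 0.294). For Grb10, an imprinted adaptor of insulin signalling on chromosome 11, the change was -1.77. Grb10 had 682, 301 and 323 against 4071, 3837 and 2464 counts before OHT, and 3239.7, 2212 and 2231 against 7664, 5576 and 5475 after it, so that PRC1CPM was higher in both conditions and the log2 difference was smaller after OHT. Groups hold 3 libraries each, so none was tested for an outlying library.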

How the results depend on the processing

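Counts are given as higher then lower over all chromosomes (main 540 and 141), then higher and lower outside chromosomes 1, 6, 11 and Y (main 330 and 98). With the replicate block they were 1137, 292, 700 and 207, and with all 12 libraries in the fit 214, 39, 132 and 26, or 1107, 232, 679 and 156 with the block as well. On the TMM scale 427 were lower, 289 of them outside the 4 chromosomes, and TMM with the block gave 815, 463, 512 and 312. Without the genomic DNA correction 46 were lower, 35 of them outside. edgeR with the block gave 1131, 286, 695 and 202, against 582 and 138 without it, and DESeq2 gave 535 and 151. These totals were not all the same transcripts. DESeq2 called 426 of the 540 higher and 119 of the 141 lower ones, and outside the 4 chromosomes 250 of the 330 and 81 of the 98. An adjusted p below 0.01 gave 262, 79, 160 and 58, a fold above 2 gave 87 lower, and limma without the mean-variance trend gave 561 higher outside the 4 chromosomes. The fit without the trend, robust moderation, 1 transcript per symbol and the block with TMM or edgeR were chosen after seeing the data. Leaving out 1 library at a time gave 199 to 1255 higher and 120 to 617 outside, the fewest without PRC1CKO replicate 2 and the most without PRC1CPM replicate 2, and 47 to 388 lower and 31 to 267 outside, the fewest without PRC1CKO replicate 1 and the most without PRC1CPM replicate 1.

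Transcripts called the same way in untreated cells (main 133 higher, 15 lower) were 345 and 38 with the replicate block, and 32 lower on the TMM scale. Leaving out 1 untreated library gave 54 to 346 and 5 to 24, the highest of both without PRC1CKO replicate 1. The difference between the lines in the mean over libraries of the relative level of chromosome 1 was -0.27, and -0.18 with no filter on reads. It ran from -0.32 to -0.24 with 1 library left out, that of chromosome 6 from 0.23 to 0.25, of chromosome 11 from 0.32 to 0.35 and of chromosome Y from 2.10 to 2.66.

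Of 147 named genes, 133 were called, and 59 kept the call without each library in turn. The genes whose sign changed were not called by limma, edgeR or DESeq2 in any of these fits, namely Rnf2 (0.12 without the genomic DNA correction, and -0.143 to 0.063 with 1 library left out, above 0 without PRC1CPM replicate 2), Usp9y (-0.005674 to 0.66) and Eif2s3y (-0.020 to 0.284). The calls of 42 named genes were lost without the genomic DNA correction, 72 with all 12 libraries and no block, 25 by DESeq2 and 9 on the TMM scale. The replicate block changed no call of these but added 7, among them Ring1, Oxtr, Fgf4, Foxd3, Cdx2 and Hes7. The cause of these changes was not tested. The OHT-treated libraries held 19934821 to 27016156 reads on transcripts, which limits the precision of genes with few reads.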

Other observations

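Lists not yet described held few calls, to be read against 3.31% of all genes higher and 0.835% lower, or 6.85% and 1.68% with the replicate block. Several of these counts are near those shares. Among 53 collagen, laminin and matrix genes, Col1a1 (1.44), Tnc (1.21) and Col26a1 (0.99) were higher and Col13a1 (-0.80), Col4a1 and Col4a2 lower, and with the replicate block 4 were higher and 3 lower. Col1a1, the main fibrillar collagen, had 2461, 1686 and 2081 counts in PRC1CKO and 12136, 3198 and 4417 in PRC1CPM, and Tnc lost its call without PRC1CKO replicate 2 or 3 or PRC1CPM replicate 1 or 2. Among 69 neurotransmitter receptor and ion channel genes, 2 were higher, among them Grin1 (0.84), and 2 lower, Grin2a and Kcnj3 (-0.86), and with the replicate block 5 were higher and 3 lower. Grin2a, an NMDA receptor subunit, had 2779.6, 2648 and 2483 counts against 833, 856 and 590.4 (difference -1.81, SE 0.23), was lower in untreated cells too (-1.38), and kept its call when any single library was left out.

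Of 28 FGF pathway genes, Fgf8 and Fgf18 (1.31) were higher and none lower, and with the replicate block 4 were higher and 3 lower. Of 47 Wnt pathway genes, Sp5 (1.05), a Wnt target, was higher and Wnt6 (-1.01) lower, and with the block 4 were higher and 1 lower. Of 19 Notch pathway genes limma called none, but 2 were higher with the replicate block and 2 on the TMM scale. Of the 19, 18 had a difference above 0, the median was 0.37 (0.33 untreated), and for 8 all 3 PRC1CPM libraries lay above all 3 PRC1CKO libraries (11.7% of all transcripts). The largest was that of Hes7 (1.45, limma adjusted p = 0.0654). Of 63 axon guidance genes, Epha4 (-0.72) on chromosome 1 was lower, and 1 gene was higher with the block. Of 37 cadherins and protocadherins, Fat2 (1.31) was higher and Cdh4 (-0.69) lower, and with the block 4 were lower. Of 18 retinoic acid genes, Rara (0.77), a nuclear receptor on chromosome 11, was higher, and 1 gene was lower with the block.

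Of 26 Cdk inhibitor and p53 target genes, Cdkn1a, the cell cycle inhibitor p21, was higher, with 1989.6, 2056 and 1522 counts against 4122, 2865 and 3082 (difference 0.85, limma adjusted p = 0.00486). With the block 2 genes of the list were higher and 1 lower. Cdkn1a lost the call without PRC1CKO replicate 3 or PRC1CPM replicate 3. Of 7 fibroblast markers 1, Col1a1, was higher (median 0.36; 2 with the block), and of 9 X-inactivation and Y-linked genes 3, all on chromosome Y. Of 21 heat shock and unfolded protein response genes, Chac1 (1.16) and Atf3 (0.85) were higher, and 3 were with the block. None of 24 cholesterol synthesis genes was called by limma, with a median of 0.25 and 19 differences above 0, and 1 was higher with the block. Oxtr, the oxytocin receptor gene on chromosome 6, had 120.2, 102 and 83.7 counts against 186, 136 and 179 and was not called (0.71, limma adjusted p = 0.206), but was called with the replicate block (adjusted p = 0.0289).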
